A study of Mus musculus with 12 samples.

Results

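The 45 genes described here encode the proteins that store, dock, fuse and retrieve synaptic vesicles at the presynaptic terminal. They were chosen by symbol from the rows of a table of raw counts that holds 24421 genes in 12 libraries of mouse hippocampus. Of the 45, 43 were among the 13065 genes that passed the filter on low counts and were tested. Sv2c and Rims3 did not pass. The libraries came from mice 2 months old whose hippocampi were dissected after BrdU injections, which all 4 genotypes received, with 3 libraries for each genotype. WT mice carried neither alteration. 5xFAD mice carry human transgenes driven by the mouse Thy1 promoter and are used as a model of amyloid deposition. The p75NTRko-labelled mice are named as knockouts of Ngfr, which encodes a receptor for neurotrophins, p75NTR. The 5xFAD/p75NTRko-labelled mice combine both. The labels give biological replicate numbers but no strain, sex, allele or number of animals per library, so p-values measure the spread between these libraries. The comparisons address how the receptor and the transgenes alter the hippocampus.

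A vesicle is filled with transmitter, tethered to the cytomatrix by synapsins, carried to the active zone by Rab3 GTPases and primed there by RIM and UNC13 proteins. Calcium entry is read by synaptotagmins, and the SNARE proteins on vesicle and plasma membrane then draw the membranes together, with complexins holding and releasing the assembled complex. NSF and its adaptors take the spent complexes apart, and dynamin, amphiphysin, endophilin and synaptojanin recover the membrane. In the hippocampus most of this machinery sits in the terminals of granule cells, pyramidal cells, interneurons and incoming axons whose cell bodies lie elsewhere.

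Libraries held between 4316739 and 6683613 counts assigned to genes, and the 45 genes took 1.93% to 2.16% of them. Levels are counts per 1000000 (CPM) on library sizes scaled by the trimmed mean of M-values (TMM). The 3′ method gives 1 tag per transcript, so CPM needs no length term and levels are compared between genes per transcript; they still depend on the annotated 3′ ends. A count of 3 in a library corresponded to 0.446 to 0.690 CPM. Ngfr went against its label: it had 32 to 64 counts in the 6 libraries labelled p75NTRko or 5xFAD/p75NTRko and 1 to 12 in the others, and a 3′ tag outside a deleted part does not test the deletion. Every direction below that involves p75NTRko therefore refers to the label. Thy1, whose promoter and flanking sequence drive the transgenes, was at 1596 to 4019 CPM in the 6 libraries labelled as carriers and at 688 to 940 CPM in the others. Xist was at 360 to 440 CPM in all WT and 5xFAD/p75NTRko libraries and p75NTRko replicate 1, and at 1.53 to 3.58 CPM in all 5xFAD libraries and p75NTRko replicates 2 and 3. Sex and genotype can therefore not be told apart in 5xFAD against WT or in 5xFAD/p75NTRko against 5xFAD. They are partly mixed in every comparison that includes p75NTRko, whose replicates differed in Xist. In the interaction they nearly coincide, since WT and 5xFAD/p75NTRko are set against 5xFAD and p75NTRko. WT replicates 1 and 2 and 5xFAD/p75NTRko replicate 3 stood apart from the other 9 libraries on the first principal component of all genes, and values without them are given where they alter a result. Leaving them out keeps WT replicate 3 as the only WT library, so those values hold no spread within WT. In bulk tissue, fewer cells of a type and less RNA per cell cannot be told apart.

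Most of the vesicle release genes were abundant, and a few were close to the limit of measurement. Their mean levels over the 12 libraries ran from 3003 ± 298 CPM (SD) for Syt1, the calcium sensor of fast synchronous release, down to 0.0588 CPM for Rims3. The second highest was Snap25, a plasma membrane SNARE, at 2496 ± 274 CPM. They were followed by Synj1 (1489 CPM), Rab3a (1438 CPM), Slc17a7 (1060 CPM), Rab3c (1052 CPM) and Nsf (1014 CPM). In all, 7 genes averaged above 1000 CPM, 21 lay between 100 and 1000 CPM, 13 between 10 and 100 CPM and 4 under 10 CPM. Of the 43 tested genes, 25 were in the top 10% of all tested genes by mean level. In 40 of 44 neighbouring pairs in this order the ranges over the 12 libraries overlapped. The exceptions were the steps from Snap25 to Synj1, from Rab3a to Slc17a7, from Syn2 to Snap91 and from Syt2 to Sv2c. Some pairs with overlapping ranges still kept the same order within all 12 libraries. These were Syt1 above Snap25, Vamp2 above Syn2, Syngr1 above Syn1, Pclo above Syngr3 and Doc2a above Rims1.

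**Figure D1:**
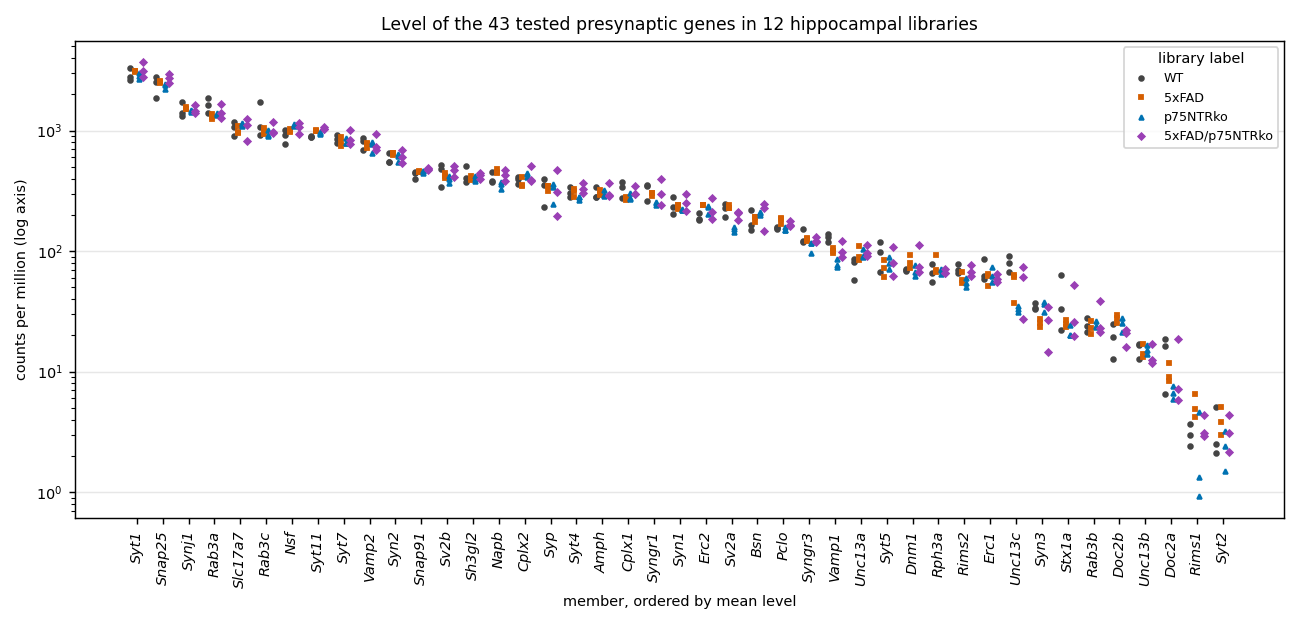
Level of each of the 43 tested genes in CPM (log axis) in every library, ordered by mean level from left to right; each point is 1 of 12 libraries, coloured by label. The genotypes lie on top of each other for most genes, and the order runs from Syt1 at a mean of 3003 CPM to Syt2 at 3.19 CPM.

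The spread between libraries was small for most of these genes. The highest library was less than 2 times the lowest in 35 of them and less than 1.5 times the lowest in 17. Their median biological coefficient of variation, which edgeR estimates from the spread within genotypes, was 11.9%, against 13.2% over all tested genes. Above 30 CPM the medians were 11.1% for 36 of the vesicle release genes and 10.4% for all 5696 genes at that level. Syt11 had one of the lower values at 7.96%. Doc2a (33.1%), Stx1a (29.0%), Rims1 (28.5%), Syt2 (27.6%), Unc13c (23.0%) and Syp (21.7%) had the higher values.

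Among the synapsins, which bind vesicles and hold them in the reserve pool, Syn2 gave 69.5% ± 3.55 (SD, n = 12 libraries) of the summed CPM of the 3 genes, Syn1 27.1% ± 3.18 and Syn3 3.46% ± 0.898. Syn2 was at 547, 657 and 548 CPM in WT, 624, 657 and 653 in 5xFAD, 543, 634 and 620 with the p75NTRko label and 601, 695 and 533 with the 5xFAD/p75NTRko label. All 4 genotypes overlapped. Syn3 was at 36.9, 33.1 and 33.8 CPM in WT, 23.4, 25.2 and 27.1 in 5xFAD, 36.7, 37.9 and 31.1 with the p75NTRko label and 26.6, 14.4 and 34.1 with the 5xFAD/p75NTRko label. The 3 libraries of 5xFAD lay below all 3 of WT, and 5xFAD/p75NTRko replicate 2 was lowest of all. The joint test of the 4 genotypes gave Syn3 an adjusted p of 0.485 by edgeR. Exons of Syn1, Syn2 and Syn3 overlap Araf (9 bases), Timp4 (90 bases) and Timp3 (1733 bases) on the opposite strand. Whether the counting used strand is not given in the sources used here.

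Calcium sensors other than Syt1 covered a wide range. Of the summed CPM of the 6 synaptotagmins, Syt1 gave 57.6% ± 1.67 (SD, n = 12), Syt11 18.7% ± 1.37, Syt7, the sensor of slow asynchronous release, 16.1% ± 1.16, Syt4 5.90% ± 0.275, Syt5 1.59% ± 0.320 and Syt2 0.0612% ± 0.0220. Syt1 was at 3325, 2765 and 2603 CPM in WT, 3043, 3097 and 3115 in 5xFAD, 2700, 2990 and 2822 with the p75NTRko label and 2788, 3120 and 3673 with the 5xFAD/p75NTRko label. The 5xFAD libraries lay above all p75NTRko libraries, and the other pairs of genotypes overlapped. Syt11, a synaptotagmin that does not bind calcium and restrains vesicle retrieval, was at 879, 901 and 876 CPM in WT, 986, 988 and 1010 in 5xFAD, 949, 934 and 982 with the p75NTRko label and 1036, 1072 and 1022 with the 5xFAD/p75NTRko label. Every library of the other 3 labels was above every WT library, and the 5xFAD/p75NTRko libraries were above all others. Its joint test gave an adjusted p of 0.454 by edgeR. Doc2b, a soluble calcium sensor that acts in spontaneous release, was at 12.9, 19.3 and 24.7 CPM in WT, 25.3, 27.8 and 29.7 in 5xFAD, 21.1, 25.5 and 27.9 with the p75NTRko label and 22, 21.1 and 16.1 with the 5xFAD/p75NTRko label. The 5xFAD libraries lay above all WT and all 5xFAD/p75NTRko libraries, and its joint adjusted p was 0.477 by edgeR.

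In the SNARE group the vesicle proteins Vamp1 and Vamp2 (synaptobrevins) differed in level, with Vamp2 giving 88.2% ± 2.42 (SD, n = 12) of their sum. Vamp1 was at 131, 137 and 118 CPM in WT, 107, 96.0 and 99.7 in 5xFAD, 76.6, 86.0 and 74.2 with the p75NTRko label and 122, 89.5 and 97.4 with the 5xFAD/p75NTRko label. WT was above 5xFAD in every library, 5xFAD was above p75NTRko in every library, and 5xFAD/p75NTRko overlapped both WT and 5xFAD. Its share of the synaptobrevin sum was 14.0% ± 2.15 (SD, n = 3) in WT, 11.7% ± 0.637 in 5xFAD, 9.73% ± 1.77 in p75NTRko and 11.8% ± 3.15 in 5xFAD/p75NTRko. Snap25 was at 2760, 1852 and 2551 CPM in WT, 2570, 2537 and 2498 in 5xFAD, 2386, 2213 and 2453 with the p75NTRko label and 2485, 2935 and 2707 with the 5xFAD/p75NTRko label. The 5xFAD/p75NTRko libraries were all above the p75NTRko libraries and overlapped the others. Stx1a, a syntaxin of the plasma membrane, averaged 29.6 CPM, and its libraries are described below.

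Among the SNARE regulators, Nsf, the ATPase that disassembles SNARE complexes, was at 913, 768 and 1007 CPM in WT, 1034, 990 and 970 in 5xFAD, 1088, 1113 and 1129 with the p75NTRko label and 1076, 1156 and 931 with the 5xFAD/p75NTRko label. The p75NTRko libraries were above all WT and 5xFAD libraries. Napb, which recruits NSF to the complex, was at 381, 454 and 377 CPM in WT, 441, 481 and 455 in 5xFAD, 330, 375 and 363 with the p75NTRko label and 385, 467 and 428 with the 5xFAD/p75NTRko label. For Napb the p75NTRko libraries were the lowest and did not overlap any other genotype. Cplx2, a complexin, was at 361, 416 and 398 CPM in WT, 344, 350 and 409 in 5xFAD, 433, 446 and 413 with the p75NTRko label and 390, 510 and 379 with the 5xFAD/p75NTRko label. All genotypes overlapped 5xFAD/p75NTRko, and Cplx2 gave 57.3% ± 4.13 (SD, n = 12) of the sum of both complexins.

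Proteins of the vesicle membrane were led by Slc17a7, the vesicular glutamate transporter of hippocampal excitatory neurons. It was at 1062, 1169 and 901 CPM in WT, 977, 954 and 1095 in 5xFAD, 1130, 1097 and 1166 with the p75NTRko label and 818, 1243 and 1111 with the 5xFAD/p75NTRko label. The 5xFAD libraries lay just below all p75NTRko libraries, and the other pairs of genotypes overlapped. Sv2a, a vesicle glycoprotein that primes vesicles and is the binding site of the antiepileptic drug levetiracetam, was at 229, 245 and 192 CPM in WT, 226, 243 and 228 in 5xFAD, 158, 143 and 152 with the p75NTRko label and 206, 212 and 180 with the 5xFAD/p75NTRko label. The 3 p75NTRko libraries were below all 9 others, and 5xFAD/p75NTRko was below 5xFAD in every library. Its paralog Sv2b, at 340 to 513 CPM, overlapped between the genotypes, and the share of Sv2a in the SV2 sum was 33.5% ± 2.18 (SD, n = 3) in WT, 35.5% ± 0.305 in 5xFAD, 27.7% ± 2.27 in p75NTRko and 30.1% ± 3.75 in 5xFAD/p75NTRko. Sv2c reached at most 4 counts in a library, or 0.595 CPM. Syp (synaptophysin), on chromosome X like Syn1, ranged from 197 to 467 CPM, with both ends in 5xFAD/p75NTRko.

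Of the Rab3 group, Rab3a gave 57.4% ± 2.66 (SD, n = 12) of the Rab3 sum, Rab3c 41.6% ± 2.67 and Rab3b 0.996% ± 0.151. Rab3a was at 1644, 1862 and 1388 CPM in WT, 1304, 1252 and 1361 in 5xFAD, 1346, 1374 and 1398 with the p75NTRko label and 1275, 1394 and 1655 with the 5xFAD/p75NTRko label. All 5xFAD libraries were below all WT libraries. Exons of Rab3a overlap Mpv17l2 on the opposite strand by 29 bases. Rab3c had 1 library far above the rest, WT replicate 2 at 1741 CPM, against 903 to 1175 CPM in the other 11. Rph3a (rabphilin, a Rab3 effector) stayed between 55.7 and 92.4 CPM.

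Active zone genes were lower in level than the vesicle genes, with a median of 63.1 CPM over the 10 genes against 294 CPM over the 7 vesicle membrane genes. Erc2, a scaffold of the active zone, was at 182, 184 and 206 CPM in WT, 242, 242 and 239 in 5xFAD, 235, 204 and 234 with the p75NTRko label and 211, 278 and 184 with the 5xFAD/p75NTRko label. 5xFAD was above WT in every library. Pclo (piccolo), a large scaffold, was at 154, 153 and 158 CPM in WT, 168, 187 and 184 in 5xFAD, 149, 148 and 159 with the p75NTRko label and 165, 178 and 162 with the 5xFAD/p75NTRko label. Both transgene-carrying labels were above both others in every library, and the joint adjusted p was 0.457 by edgeR. Rims2, a RIM protein that links Rab3, UNC13 and calcium channels, was at 69.8, 77.9 and 66.2 CPM in WT, 57.0, 66.5 and 54.7 in 5xFAD, 53.9, 49.9 and 59.8 with the p75NTRko label and 67.6, 61.8 and 76.2 with the 5xFAD/p75NTRko label. The p75NTRko libraries were below all WT and all 5xFAD/p75NTRko libraries. Rims2 gave 94.7% ± 2.52 (SD, n = 12) of the RIM sum, Rims1 5.27% ± 2.45, and Rims3 was at 0.376 CPM or less. Rims1 rested on 5 to 35 counts per library, and these shares depend on the annotated 3′ ends.

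In the UNC13 family of priming factors, the mean share of Unc13c was highest in WT and lowest in p75NTRko, but single libraries overlapped. The lowest share was in 5xFAD/p75NTRko replicate 2 (18.1%), and 5xFAD/p75NTRko replicate 1 (40.4%) was above WT replicate 3 (39.7%). Unc13a, the main priming factor of excitatory terminals, was at 81.3, 57.9 and 85.9 CPM in WT, 88.6, 84.1 and 109 in 5xFAD, 103, 90.6 and 89.2 with the p75NTRko label and 96.8, 113 and 91.8 with the 5xFAD/p75NTRko label. Unc13c, a paralog with a more restricted pattern in brain, was at 79.8, 90.6 and 67.5 CPM in WT, 63.0, 61.2 and 36.8 in 5xFAD, 31.3, 33.3 and 35.1 with the p75NTRko label and 74.1, 27.5 and 60.8 with the 5xFAD/p75NTRko label. The p75NTRko libraries were below all WT and 5xFAD libraries, and the lowest single value was in 5xFAD/p75NTRko replicate 2. Unc13c gave 46.9% ± 8.44 (SD, n = 3) of the UNC13 sum in WT, 33.0% ± 8.62 in 5xFAD, 23.3% ± 2.07 in p75NTRko and 31.4% ± 11.8 in 5xFAD/p75NTRko. Unc13b was the least abundant of the 3 at 11.9 to 17.1 CPM. Exons of Unc13a overlap Colgalt1 on the opposite strand by 495 bases.

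Among the endocytic genes, Synj1, the phosphatase that uncoats retrieved vesicles, was at 1316, 1722 and 1391 CPM in WT, 1503, 1511 and 1581 in 5xFAD, 1434, 1479 and 1464 with the p75NTRko label and 1387, 1638 and 1446 with the 5xFAD/p75NTRko label. The WT libraries held both the lowest and the highest value. Snap91, a clathrin adaptor, stayed between 395 and 489 CPM, Amph (amphiphysin) between 283 and 370 CPM and Sh3gl2 (endophilin) between 371 and 506 CPM. Dnm1 (dynamin), at 62.1 to 112 CPM, was the lowest of the 5.

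**Figure D2:**
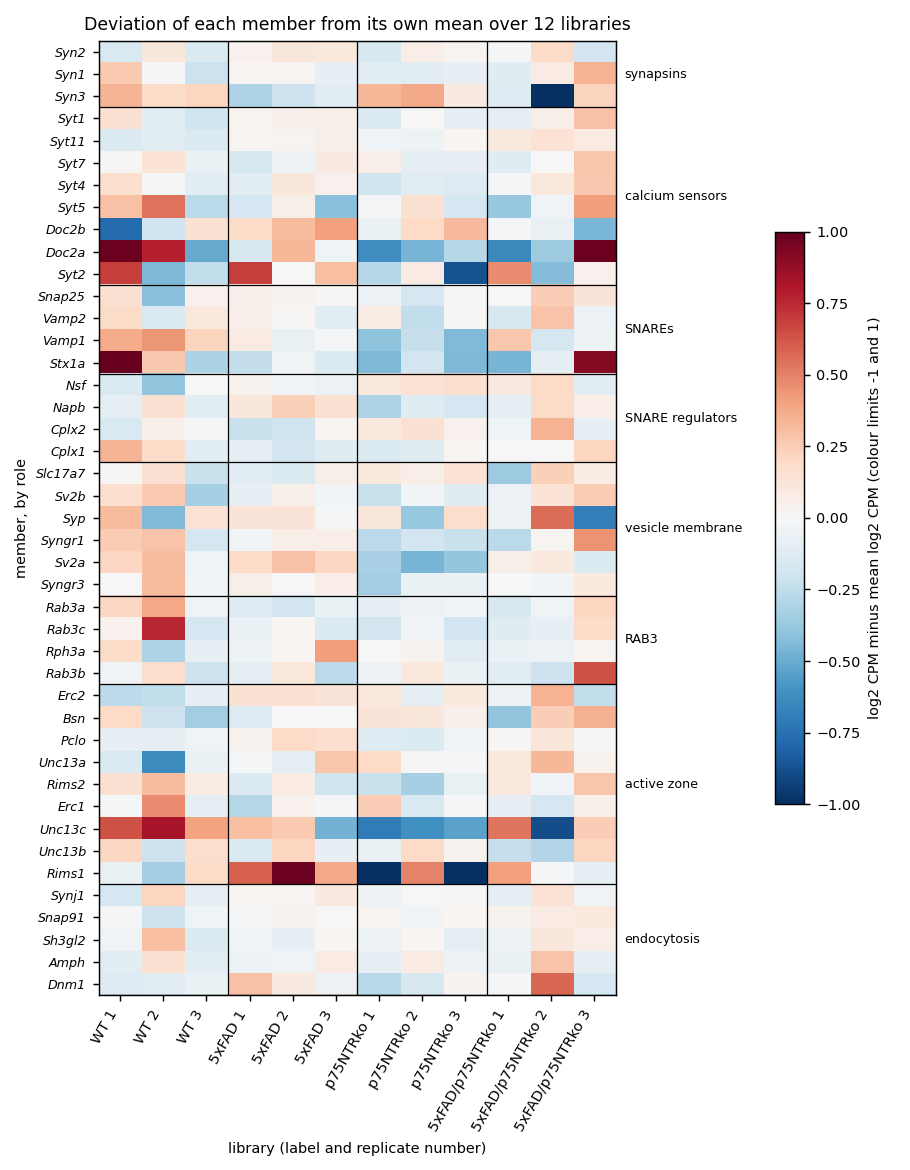
Deviation of each tested gene from its own mean over 12 libraries in log2 CPM (colour, limits of -1 and 1), with genes in rows ordered by role and then by level and libraries in columns by label and replicate number. Doc2a and Stx1a are dark in WT replicate 1 and 5xFAD/p75NTRko replicate 3, and Vamp1, Sv2a and Unc13c are blue in all 3 p75NTRko columns.

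Stx1a, Doc2a and Syngr1 were singled out after their values were seen, because they were high in the same few libraries. Stx1a was at 63.1, 33.3 and 22.1 CPM in WT, 23.3, 26.9 and 25 in 5xFAD, 20.0, 24.1 and 20.1 with the p75NTRko label and 19.8, 25.7 and 52.5 with the 5xFAD/p75NTRko label. Doc2a, a soluble calcium sensor whose exons overlap Ino80e on the opposite strand by 1103 bases, was at 18.7, 16.2 and 6.47 CPM in WT, 8.32, 11.8 and 9.05 in 5xFAD, 5.93, 6.67 and 7.58 with the p75NTRko label and 5.83, 7.21 and 18.7 with the 5xFAD/p75NTRko label. Syngr1 (synaptogyrin), a vesicle membrane protein, was at 346, 355 and 258 CPM in WT, 284, 303 and 304 in 5xFAD, 242, 254 and 249 with the p75NTRko label and 241, 296 and 396 with the 5xFAD/p75NTRko label. For all 3 genes WT replicates 1 and 2 and 5xFAD/p75NTRko replicate 3 held the highest values, and WT replicate 3 lay among the remaining libraries. These 3 libraries lay at -1.92, -1.60 and -1.71 on the first principal component of the 43 genes, while the other 9 lay between -0.357 and 1.37. That component carried 39.8% of the variance of the 43 genes. Its largest loadings were those of Doc2a (-0.493) and Stx1a (-0.412), so it partly repeats the values above and is not separate support. WT replicate 2 held the highest value of 12 of the 43 genes, 5xFAD/p75NTRko replicate 2 that of 12 and 5xFAD/p75NTRko replicate 3 that of 9.

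**Figure D3:**
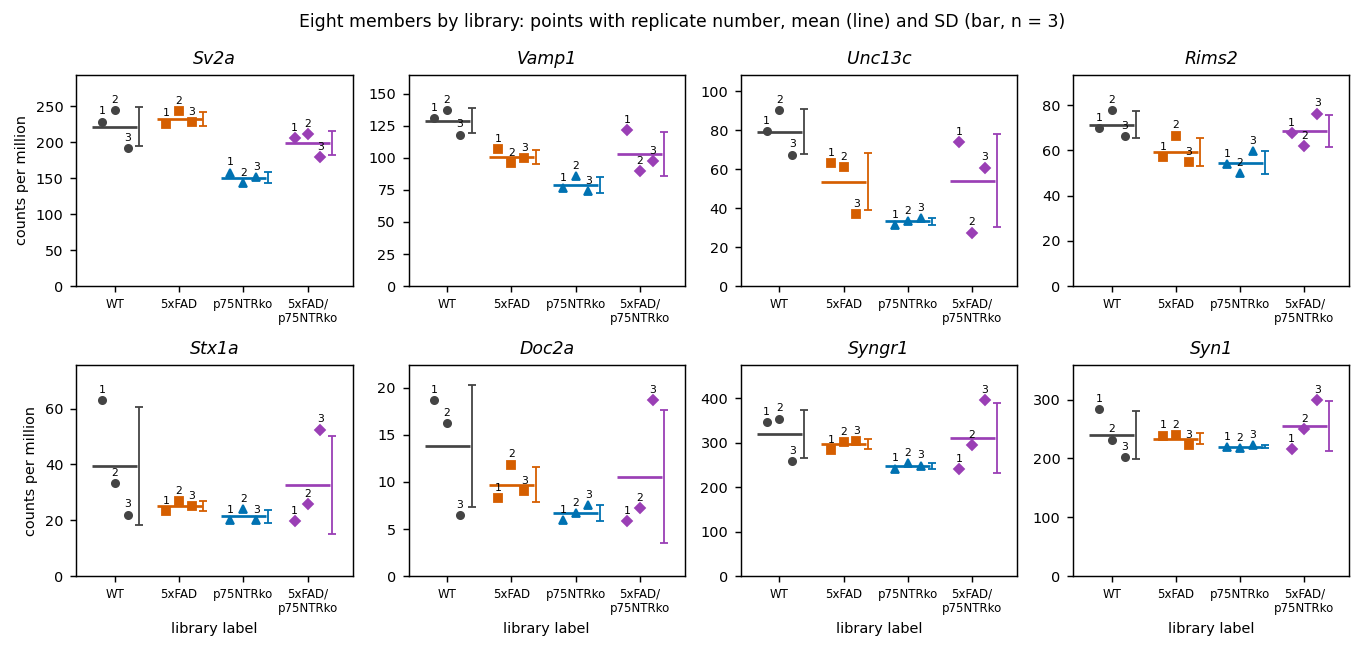
CPM of 8 genes in each library (points with replicate number), with the mean (line) and SD (bar, n = 3) of each label; axes start at 0. Sv2a, Vamp1 and Unc13c are lowest in the p75NTRko libraries apart from 5xFAD/p75NTRko replicate 2 in Unc13c, and Stx1a and Doc2a are spread widely within WT and 5xFAD/p75NTRko.

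Promoter sequences are shown for the 3 genes with the smallest p in the joint test (Sv2a, Vamp1 and Unc13c) and for 2 of the genes that were high in the same libraries (Stx1a and Syngr1). Each is the 250 bases before a start site in RefSeq on GRCm38.p6, the same assembly as mm10, printed 5′ to 3′ on the gene's strand in lower case. Capitals mark a match to the GC box letters GGGCGG on either strand, so that a match on the other strand reads CCGCCC. The Unc13c window lies at a start inside the gene's annotated span.
Sv2a (chr3:96180977-96181226, plus strand): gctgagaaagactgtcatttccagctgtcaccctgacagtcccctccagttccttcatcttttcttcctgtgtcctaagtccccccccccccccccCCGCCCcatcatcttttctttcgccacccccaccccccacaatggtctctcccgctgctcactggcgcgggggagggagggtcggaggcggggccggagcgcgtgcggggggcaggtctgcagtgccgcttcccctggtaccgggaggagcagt
Vamp1 (chr6:125215331-125215580, plus strand): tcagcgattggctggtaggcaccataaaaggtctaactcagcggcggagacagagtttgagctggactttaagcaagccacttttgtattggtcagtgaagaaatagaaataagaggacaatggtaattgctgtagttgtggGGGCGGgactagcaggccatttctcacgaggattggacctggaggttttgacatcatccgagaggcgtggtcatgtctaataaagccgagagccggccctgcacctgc
Unc13c (chr9:73969038-73969287, minus strand): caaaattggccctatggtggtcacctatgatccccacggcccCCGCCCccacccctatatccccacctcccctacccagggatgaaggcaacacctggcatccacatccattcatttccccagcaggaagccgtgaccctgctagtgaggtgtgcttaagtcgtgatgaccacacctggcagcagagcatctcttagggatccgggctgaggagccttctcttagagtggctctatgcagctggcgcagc
Stx1a (chr5:135023232-135023481, plus strand): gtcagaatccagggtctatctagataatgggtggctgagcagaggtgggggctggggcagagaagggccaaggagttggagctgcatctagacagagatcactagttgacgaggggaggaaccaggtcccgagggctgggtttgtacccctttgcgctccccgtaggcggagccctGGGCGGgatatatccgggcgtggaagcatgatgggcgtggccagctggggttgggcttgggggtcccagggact
Syngr1 (chr15:80091084-80091333, plus strand): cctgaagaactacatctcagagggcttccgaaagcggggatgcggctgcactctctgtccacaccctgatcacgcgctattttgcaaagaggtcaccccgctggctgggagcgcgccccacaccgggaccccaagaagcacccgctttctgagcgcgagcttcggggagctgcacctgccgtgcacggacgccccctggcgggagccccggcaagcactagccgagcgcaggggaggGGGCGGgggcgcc

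Each of these windows held 1 GC box match and no match to the other motifs searched, which were the cAMP response element TGACGTCA, the palindromic NRF1 site and the TATA box TATAAA. Both strands were searched, and a match was allowed to overlap one of another motif. The table held windows for 35 of the 45 genes, 45 windows in all. A GC box was in 27 of these 45 windows and in 32.7% of all 32851 windows of the same length. The cAMP response element was in 4.44% and 1.55% of them, at Syn1 and Sh3gl2. The NRF1 site was in 2.22% and 0.782%, at Bsn, and the TATA box in 6.67% and 12.4%, at Rab3b and Sv2b. GC content of the printed windows ran from 50.4% in Vamp1 to 68.4% in Syngr1. A match is a string of letters in this window and says nothing on binding.

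Differences between genotypes were tested with edgeR's quasi-likelihood test, fitted to all 12 libraries and all 13065 genes, with Benjamini-Hochberg adjustment and a threshold of 0.05. No vesicle release gene passed in any of 7 tests. In the joint test of any difference among the 4 genotypes 0 of 43 passed by edgeR, where 0.0995% of all genes did. At an unadjusted p under 0.05 there were 8 of 43, against 10.4% of all genes. The smallest was that of Sv2a (adjusted p = 0.0755 by edgeR), followed by Vamp1 (adjusted p = 0.102) and Unc13c (adjusted p = 0.258). DESeq2 called these same 3, with adjusted p of 6.08e-05, 0.000550 and 0.0138, and called 1.35% of the genes it tested. In edgeR the joint call depended on single libraries: Sv2a passed without WT replicate 3 (adjusted p = 0.0246) or without 5xFAD/p75NTRko replicate 3 (0.0300), Vamp1 without 5xFAD/p75NTRko replicate 1 (0.0301), and Unc13c without 5xFAD/p75NTRko replicate 2 (0.0400). Leaving out the 3 libraries that stood apart, a choice made after seeing the data, keeps only WT replicate 3 in WT. No joint p-values are given for that fit.

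In p75NTRko-labelled against WT libraries, Vamp1, Sv2a and Unc13c had the smallest p-values, and all 3 were lower in every p75NTRko library. Vamp1 averaged 78.9 ± 6.25 CPM (SD, n = 3) against 129 ± 9.83, a log2 fold change of -0.71 with SE 0.116 (by edgeR, adjusted p = 0.0822). Sv2a averaged 151 ± 7.25 CPM against 222 ± 27.4, a log2 fold change of -0.55 with SE 0.102 (by edgeR, adjusted p = 0.117). Unc13c averaged 33.2 ± 1.88 CPM against 79.3 ± 11.5, a log2 fold change of -1.25 with SE 0.275 (by edgeR, adjusted p = 0.169). By edgeR 0 of 43 passed, as did 0% of all genes. DESeq2 called these 3 genes, with adjusted p of 9.90e-05 for Vamp1, 0.00105 for Sv2a and 0.00504 for Unc13c, and 0.327% of the genes it tested. At an unadjusted p under 0.05 there were 12 of 43, against 11.5% of all genes: 10 lower, against 6.16%, and 2 higher, against 5.33%. The 9 other genes were Rims2, Stx1a, Doc2a, Syngr1, Syngr3, Rab3c and Rab3a on the lower side and Nsf (0.31) and Unc13a (0.33) on the higher side. Libraries did not overlap for 10 genes, against 16.4% of all genes, 7 of them lower, against 8.5%.

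For the 43 genes the median log2 fold change in p75NTRko against WT was -0.07, with 13 above 0, beside a median of 0.00 over all genes, of which 49.9% were above 0. Without WT replicates 1 and 2 and 5xFAD/p75NTRko replicate 3, which leaves WT replicate 3 as the only WT library, it was 0.04. The log2 fold changes of Vamp1, Sv2a and Unc13c in that fit were -0.58, -0.34 and -1.02. Sv2a and Vamp1 passed without WT replicate 3 (adjusted p = 0.0246 and 0.0333), Vamp1 without 5xFAD/p75NTRko replicate 1 (0.0252), and Vamp1 and Unc13c without 5xFAD/p75NTRko replicate 2 (0.0197 and 0.0159). By role, all 4 SNARE genes had values below 0, from -0.89 in Stx1a to -0.02 in Snap25, as had 5 of 6 vesicle membrane genes. The Stx1a value comes from WT replicates 1 and 2, since WT replicate 3, at 22.1 CPM, lay within the p75NTRko range. Of 11 pan-neuronal markers 8 were also below 0 in this comparison, with a median of -0.16. Their mean log2 CPM averaged 8.27 in p75NTRko and 8.42 in WT. The highest p75NTRko library (8.2997) lay only just below the lowest WT library (8.3005). Their summed levels overlapped, at 5212 to 5485 against 5324 to 6688 CPM. Their part in the result was not tested.

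In 5xFAD against WT the values of the 43 genes were spread evenly about 0. The 3 with the smallest p were Vamp1 (101 ± 5.59 against 129 ± 9.83 CPM, log2 fold change -0.35, SE 0.115, adjusted p = 0.252 by edgeR), Rab3a (1306 ± 54.9 against 1631 ± 237 CPM, -0.32, SE 0.114, adjusted p = 0.278) and Erc2 (241 ± 1.68 against 191 ± 13.4 CPM, 0.34, SE 0.125, adjusted p = 0.295). By edgeR 0 of 43 passed, against 0.0536% of all genes, and DESeq2 called 0, against 0.85% of the genes it tested. At an unadjusted p under 0.05 there were 10 of 43, against 13.9% of all genes: 5 higher, against 7.73%, and 5 lower, against 6.14%. The higher ones were Erc2, Doc2b (0.54), Pclo (0.21), Syt11 (0.17) and Unc13a (0.32), and the lower ones Vamp1, Rab3a, Cplx1 (-0.27), Rims2 (-0.26) and Syn3 (-0.46). Libraries did not overlap for 10 genes, against 19.6% of all genes. Of the 43 genes 21 were above 0, against 49.6% of all genes, with a median of -0.03, and of 0.13 without the 3 libraries that stood apart.

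In 5xFAD/p75NTRko-labelled against 5xFAD libraries, Doc2b and Sv2a were lower in every library. By edgeR 0 of 43 passed, against 0.0383% of all genes, 0 passed by DESeq2, against 0.125%, and 2 were under an unadjusted p of 0.05, against 5.08%, both lower, against 3.1%. These were Doc2b (19.7 ± 3.18 against 27.6 ± 2.19 CPM, log2 fold change -0.49, SE 0.204, adjusted p = 0.893 by edgeR) and Sv2a (199 ± 17.1 against 233 ± 9.30 CPM, -0.22, SE 0.101, adjusted p = 0.967). Cplx2 came next, with a log2 fold change of 0.21 (adjusted p = 0.980 by edgeR). Libraries did not overlap for 5 genes, against 11.2% of all genes. Above 0 were 30 of 43, against 52.8% of all genes, with a median log2 fold change of 0.06.

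Against p75NTRko, values were mostly higher in 5xFAD/p75NTRko. Sv2a had a log2 fold change of 0.40 with SE 0.102 (by edgeR, adjusted p = 0.457), Vamp1 of 0.39 (SE 0.117, adjusted p = 0.657) and Rims2 of 0.33 (SE 0.118, adjusted p = 0.711). In all 3 every 5xFAD/p75NTRko library was above every p75NTRko library. By edgeR 0 of 43 passed, as did 0% of all genes, DESeq2 called 0, against 0.167%, and 7 were under an unadjusted p of 0.05, against 6.59% of all genes. Libraries did not overlap for 10 genes, all higher, where 6.54% of all genes were higher without overlap; besides those 3 they were Napb, Pclo, Snap25, Snap91, Syngr3, Syt11 and Syt4. Above 0 were 34 of 43, against 53.3% of all genes, and their median was 0.13. All 11 pan-neuronal markers were above 0 as well, with a median of 0.10, and their mean log2 CPM was 8.38 to 8.44 in 5xFAD/p75NTRko, above every p75NTRko library. The 10 oligodendrocyte markers summed to 4131 to 5371 CPM in 5xFAD/p75NTRko and to 6431 to 7796 CPM in p75NTRko. The part of both lists in the result was not tested. All 5 endocytic genes (0.03 to 0.29) and all 4 SNARE genes (0.08 to 0.62) had values above 0.

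Compared with WT, a pair in which all 6 libraries had high Xist, 5xFAD/p75NTRko had its smallest p-values in Syt11 (1043 ± 25.9 against 885 ± 13.9 CPM, log2 fold change 0.24, SE 0.0734, adjusted p = 0.428 by edgeR), Unc13a (100 ± 11.0 against 75.1 ± 15.0 CPM, 0.42, SE 0.145, adjusted p = 0.469) and Vamp1 (103 ± 16.9 against 129 ± 9.83 CPM, -0.32, SE 0.115, adjusted p = 0.469). By edgeR 0 of 43 passed, as did 0% of all genes, DESeq2 called 0, against 0.222%, and 5 were under an unadjusted p of 0.05, against 9.95%. Libraries did not overlap for Pclo, Snap91, Syt11 and Unc13a, which is 4 of 43 against 11.5% of all genes, all higher, against 5.95%. Above 0 were 24 of 43, against 50.8% of all genes, with a median of 0.02, and of 0.11 without the 3 libraries that stood apart.

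The interaction asks whether the receptor label went with a different change on the transgenic background than without it. Its smallest p was that of Vamp1 (log2 0.74, SE 0.164, adjusted p = 0.305 by edgeR and 0.0408 by DESeq2), whose receptor-label difference was -0.71 without the transgene and 0.03 with it. Rims2 (0.59, SE 0.166, adjusted p = 0.350 by edgeR) and Unc13c (1.27, SE 0.385, adjusted p = 0.379) came next. By edgeR 0 of 43 passed, against 0.0383% of all genes, DESeq2 called 1 (Vamp1), against 0.192%, and 8 were under an unadjusted p of 0.05, against 9.32%, of which 7 were above 0, against 5.19%. Unc13c passed by edgeR without 5xFAD/p75NTRko replicate 2 (1.58, adjusted p = 0.0331). The interaction sets WT and 5xFAD/p75NTRko, all with high Xist, against 5xFAD and p75NTRko, where only p75NTRko replicate 1 had high Xist. It can therefore hardly be told apart from sex. Above 0 were 27 of 43, against 50.3%, with a median of 0.12, and of -0.04 without the 3 libraries that stood apart. These comparisons share libraries, so their values are set side by side and not counted as separate support.

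**Figure D4:**
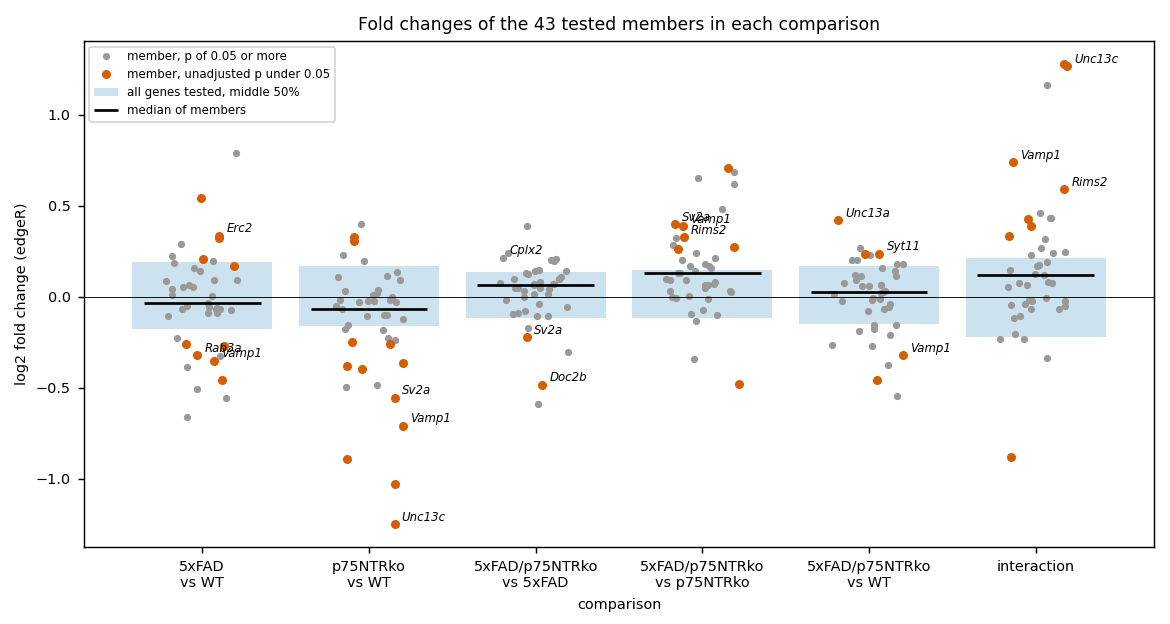
Fitted log2 fold change (edgeR) of each of the 43 tested genes in the 5 pairwise comparisons and the interaction; orange points have an unadjusted p under 0.05, the black line is the median of the 43 genes and the blue band the middle 50% of all 13065 tested genes. The names are the 3 genes with the smallest p in each comparison, and Unc13c, at -1.25, is the lowest point in p75NTRko against WT.

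The levels of some of these genes moved across libraries with marker lists of thalamus and habenula and of striatum. Whether the marker transcripts came from tissue outside the hippocampus was not tested. Of 16 thalamus and habenula markers 14 were tested, and their summed level was 657 to 884 CPM in WT, 414 to 488 in 5xFAD, 380 to 415 in p75NTRko and 331 to 1026 in 5xFAD/p75NTRko. Gbx2 and Gng8, which did not pass the filter, were at 2.16 and 0.830 CPM or less. The marker score was the mean log2 CPM of the 14 genes. Permutations shuffled all 12 libraries without regard to genotype, so their p-values also take in differences between the genotypes. The marker lists were chosen with earlier results of these data known. The relations here and with the striatal score below therefore describe these libraries and are not separate support. Unc13c followed it over 12 libraries with r = 0.847 (permutation p = 0.00085, adjusted p = 0.0378 over 86 relations) and rho = 0.881 (permutation p = 0.00039, adjusted p = 0.0335). Its r was 0.906 without WT replicate 3 and 5xFAD/p75NTRko replicate 1, the libraries farthest from the median score, and 0.874 over the 7 libraries with high Xist. Vamp1 had r = 0.811 (permutation p = 0.00176, adjusted p = 0.0378) and rho = 0.811 (permutation p = 0.00239, adjusted p = 0.0685), with r = 0.824 without the same libraries and 0.816 over the 7 libraries. After removal of genotype means r was 0.729 for Unc13c and 0.645 for Vamp1, and no p was computed for these. Rims2 (r = 0.623, permutation p = 0.0314, adjusted p = 0.193; rho = 0.685, permutation p = 0.0164, adjusted p = 0.235) and Sv2a (r = 0.388, permutation p = 0.213, adjusted p = 0.498; rho = 0.469, permutation p = 0.128, adjusted p = 0.436) did not pass adjustment. The 5 libraries with low Xist were too few for a value.

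With the thalamus and habenula score as a term in the edgeR model, the p75NTRko against WT values were -0.57 for Sv2a (adjusted p = 0.300), -0.50 for Vamp1 (adjusted p = 0.449) and -0.57 for Unc13c (adjusted p = 0.686). The score did not overlap between WT (4.60 to 4.94) and p75NTRko (3.69 to 3.87), so that in this comparison the score and the label can hardly be told apart. Of 12 striatal markers 9 were tested, at a summed 217 to 275 CPM in WT, 163 to 188 in 5xFAD, 156 to 176 in p75NTRko and 147 to 186 in 5xFAD/p75NTRko, and Drd2 and Gpr6 were at 0 in every library. With that score Nsf had r = -0.782 (permutation p = 0.0016, adjusted p = 0.0378) and rho = -0.790 (permutation p = 0.0034, adjusted p = 0.0731). Unc13a had r = -0.765 (permutation p = 0.00117, adjusted p = 0.0378) and rho = -0.825 (permutation p = 0.00152, adjusted p = 0.0654). Unc13c had r = 0.812 (permutation p = 0.00267, adjusted p = 0.0459) and rho = 0.727 (permutation p = 0.0101, adjusted p = 0.173). Without 5xFAD/p75NTRko replicate 2 and WT replicate 1 these r were -0.727, -0.729 and 0.719, and over the 7 libraries with high Xist -0.830, -0.795 and 0.766. After removal of genotype means they were -0.494, -0.511 and 0.691, and all 3 WT scores (4.04 to 4.15) lay above those of every other library. The 10 choroid plexus markers summed to 2056 to 5180 CPM in WT, 173 to 1623 in 5xFAD, 3959 to 6475 in p75NTRko and 78.9 to 6379 in 5xFAD/p75NTRko, and 9 of 10 interneuron markers to 810 to 1008, 782 to 856, 815 to 876 and 814 to 1011 CPM. The part of the striatal, choroid plexus and interneuron lists in the differences between genotypes was not tested.

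**Figure D5:**
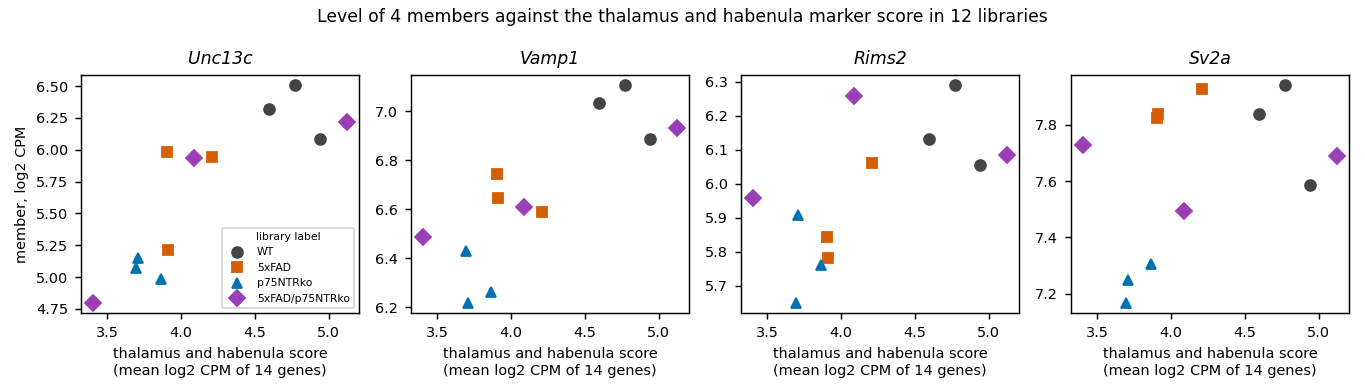
Log2 CPM of 4 genes (vertical axes) against the mean log2 CPM of 14 thalamus and habenula markers (horizontal axes) in 12 libraries coloured by label. Unc13c (r = 0.847) and Vamp1 (r = 0.811) climb with the score, while Sv2a (r = 0.388) is lowest in the 3 p75NTRko libraries and at 212 CPM in 5xFAD/p75NTRko replicate 2, which has the lowest score.

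A further 79 genes of the presynaptic terminal, covering other vesicle, fusion, endocytic and active zone proteins, gave 75 tested genes, and 0 passed by edgeR in each of the 7 tests. In the joint test 16 of the 75 were under an unadjusted p of 0.05, against 10.4% of all genes, and DESeq2 called 3, against 1.35% of the genes it tested. In 5xFAD against WT DESeq2 called 4 of 74, against 0.85%. In the joint test the 3 smallest p-values by edgeR were those of Cacna2d1 (adjusted p = 0.0790), Slc32a1 (0.173) and Nrxn3 (0.174). These encode an auxiliary calcium channel subunit, the vesicular GABA transporter and a presynaptic adhesion receptor. Cacna2d1 had a log2 fold change of 0.40 in 5xFAD against WT (SE 0.0851, adjusted p = 0.110 by edgeR) and -0.11 in p75NTRko against WT. Slc32a1 had -0.37 (SE 0.0872, adjusted p = 0.150) and -0.39 (SE 0.0872, adjusted p = 0.171) in the same comparisons, with no overlap of libraries in either. Nrxn3 had 0.36 (SE 0.0945, adjusted p = 0.187) and -0.08. The 75 genes had medians of 0.00 (5xFAD against WT) and -0.04 (p75NTRko against WT) on the log2 scale.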

How the data were processed

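Per the labels' protocols, total RNA of hippocampus was made into QuantSeq forward 3′ libraries, with RNA above an integrity threshold, and sequenced on an Illumina NextSeq. The deposited table holds the authors' raw counts per gene symbol, 1 column per library. The submitters' processing notes name FastQC, HISAT2, SAMtools, HTSeq, edgeR and the mm10 build, with versions and use of strand not given in the sources used here. The 5 summary lines of the table were left out. They held 28.9% to 33.5% of reads outside features, 18.6% to 25.4% unaligned, 9.57% to 12.1% with more than 1 alignment, and 0.226% to 0.291% in overlapping features; genes received 32.2% to 38.5%. Columns of other samples numbered 0.

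The deposited counts went into edgeR 4.0.16 under R 4.3.3 (filterByExpr by genotype, TMM factors of 0.975 to 1.03, a quasi-likelihood fit of a mean per genotype over 12 libraries, Benjamini-Hochberg adjustment at 0.05). CPM used TMM-scaled sizes and log2 CPM a prior count of 2. The common coefficient of variation was 13.8%. Counts per library, 4316739 to 6683613, set the precision, and the limit of 3 counts covers counting error only. Scripts were tested on simulated data. Alternatives were DESeq2 1.42.0, other scaling and filters, fits of the compared genotypes alone, a replicate block, Xist class and marker score as terms, and leaving libraries out. Relations with marker scores used 100000 resamples, two-sided, over all 12 libraries without regard to genotype. Gene positions came from GENCODE vM21, and all 45 symbols matched. The genes and all lists were chosen with earlier results of these data known. Values in every library were given for the highest gene of each role, the 10 smallest p in the joint test and the 3 smallest in each other comparison.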

Additional observations from a re-analysis of the deposited data

Results flagged for a closer look

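Vamp1, the less abundant synaptobrevin, was the 1 gene of 43 whose receptor-label difference differed between the backgrounds by DESeq2's test of the interaction. It did not pass by edgeR. The DESeq2 interaction had an adjusted p of 0.0408 for a log2 value of 0.73, and edgeR gave 0.74 with an adjusted p of 0.305. Without the transgene all 3 p75NTRko-labelled libraries (74.2 to 86.0 CPM) were below all 3 WT libraries (118 to 137 CPM). With it, the 5xFAD/p75NTRko-labelled libraries (89.5 to 122 CPM) overlapped those of 5xFAD (96.0 to 107 CPM). With the thalamus and habenula score as a term, the edgeR interaction was 0.47 (adjusted p = 0.517). All WT and 5xFAD/p75NTRko libraries had high Xist, and of the 5xFAD and p75NTRko libraries only p75NTRko replicate 1 had. This interaction can therefore hardly be told apart from sex.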

How the results depend on the processing

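Over all alternatives, 1149 values kept their direction and their side of the threshold (counts within 1.5 times, medians within the spread between libraries), 26 values of single genes passed the threshold that they missed in the reported fit, 22 counts or medians moved and 12 values changed sign. The number of vesicle release genes past the adjusted threshold, 0 in each reported test, was 3 in p75NTRko against WT with DESeq2, 3 with no filter on low counts and 2 with only the genotypes compared. It was 3 in the joint test with DESeq2 and 3 with no filter, and 1 in the interaction with DESeq2. Leaving out 1 library gave 0 to 2 in p75NTRko against WT, 0 to 1 in the interaction and 0 to 1 in the joint test. No such count is given for the fit without the 3 libraries that stood apart. That alternative was chosen after seeing the data and leaves WT replicate 3 alone in WT. Over all genes, DESeq2 called 102 in 5xFAD against WT, 54 in p75NTRko against WT, 22, 20 and 32 for 5xFAD/p75NTRko against 5xFAD, p75NTRko and WT, 25 in the interaction and 176 in the joint test, where edgeR called 7, 0, 5, 0, 0, 5 and 13. With no filter edgeR called 44, 46, 14, 6, 16, 15 and 81. The causes were not tested.

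The median log2 fold change was 0.222 in the interaction with Xist class as a term and 0.279 with the thalamus and habenula score, which also gave -0.212 in p75NTRko against WT. Without the 3 libraries it was 0.132 in 5xFAD against WT, 0.0418 in p75NTRko against WT, 0.111 in 5xFAD/p75NTRko against WT and -0.0422 in the interaction. In 5xFAD/p75NTRko against 5xFAD, where the reported values were 0.03 for Vamp1 and 0.01 for Unc13c, the score gave -0.0253 and -0.205, leaving out 1 library gave -0.106 to 0.119 and -0.272 to 0.324, and the fit without the 3 libraries gave -0.0731 for Unc13c. In 5xFAD/p75NTRko against WT, Rims2 was -0.139 to 0.0134 on leaving out 1 library, and Sv2a was 0.124 without the 3 libraries. Sv2a in 5xFAD against WT was -0.0337 to 0.145 on leaving out 1 library.

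Replicate numbers did not pair the libraries: deviations of same-numbered libraries correlated at -0.424 to 0.145 (median -0.0179), and 2 of 12 libraries correlated best with their own number. With a replicate block edgeR called 0 vesicle release genes in every test, and 1, 0, 0, 0, 0, 3 and 4 of all genes in the order above. Counts were few for the lowest genes: Rims3 had at most 2 counts in a library and Sv2c at most 4.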
